A study of Homo sapiens with 8 samples.

Results

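Gene expression was compared between control cells of EBC-1 and SK-MES-1, established human cell lines of lung squamous cell carcinoma (LUSQ). The comparison used the green (Cy3) control channels of 2 Agilent oligonucleotide arrays, among 16 channels on 8 arrays in the series. Each array also carried, in red (Cy5), RNA of the same line transfected with *miR-150-3p*. The deposited labels call the control source mock and also give it as not transfected. The remaining arrays gave 3 control channels each of SBC-3 (small cell lung cancer) and A549 (lung adenocarcinoma) cells, which served as a measure of the difference between hybridizations and as outside reference points. All 4 lines are cultured tumor cells. Each LUSQ line is a single line with 1 green channel, and the study grew the lines in different culture media. Line, medium, culture and array position therefore cannot be told apart, no test was possible, and every value below describes these 2 channels. A gene was included when at least 1 of its probes was well above background, by the scanner software's flag, in at least 1 line. This left 15053 of 22374 genes named on the array.

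A carcinoma cell can keep the adhesive, polarized state of an epithelium, with E-cadherin junctions, tight junctions and desmosomes, or lose it to different degrees and take on mesenchymal genes such as vimentin and the *ZEB* and *TWIST* repressors. Squamous lung carcinomas are classically marked by p63, *SOX2* and basal keratins, and often carry gains of receptor kinase genes, loss of *CDKN2A* on the short arm of chromosome 9, or mutations that keep the antioxidant factor NRF2 active. The results are given in that order, from cell identity to receptors, chromosome position, immune genes, detoxification, germ line genes and metabolism.

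A level is the log2 of a gene's processed green intensity after quantile normalization, averaged over its probes, so that 1 unit is 2-fold. A difference is EBC-1 minus SK-MES-1, and its ± is the scanner software's error, which covers the noise of a spot and not that of cultures. A gene was counted as higher in a line when the difference was at least 2-fold. By this rule, 2565 genes were higher in EBC-1 (17.0% of 15053) and 3000 were higher in SK-MES-1 (19.9%). Counts of list members below are to be read against these shares. The lists were chosen with earlier results of these data known, so their counts and ranks are descriptive. At 4-fold, the counts were 957 (6.36%) and 1424 (9.46%). The differences had a median of -0.01 and an SD of 1.74 over all genes, beside a median software error of 0.21. Between repeat green channels of SBC-3 or of A549, which may share an RNA, 0.585% to 0.795% of genes were past 2-fold in 6 pairs of channels, with an SD of 0.21 to 0.23. EBC-1 and SK-MES-1 differed at 37.0% of genes, against 35.6% to 48.6% for other pairs of different lines. The 2 LUSQ lines were thus apart by a distance of the same order as lines of different tumor types.

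A gene that was well above background in 1 line only has a lower bound in place of a fold change. It was taken from the higher of the gene's own level and the lowest level well above background in the dim line, which was 5.46 in EBC-1 against 4.77 in SK-MES-1, and is written as "at least". In both lines together, 12644 genes were well above background, 566 were so in EBC-1 only and 1843 in SK-MES-1 only. Of the genes higher in EBC-1, 542 were measured in 1 line only and 506 of these stayed past 2-fold by the bound. Of the genes higher in SK-MES-1, 1346 were measured in 1 line only and 712 stayed past 2-fold by the bound. In EBC-1, 41.1% of spots were well above background in green, against 46.4% in SK-MES-1, and the part of this in the counts was not tested. After normexp background correction (offset 50), which pulls dim signals together, the counts were 818 and 816, so the number of genes past 2-fold depends on how dim signals are treated. Sizes shrank as well. The difference of *CLDN7* went from 8.20 to 4.63 and that of *CDH1* from 11.06 to 5.26, below its bound. Every fold and every bound given here therefore holds for the software's own background correction.

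**Figure D1:**
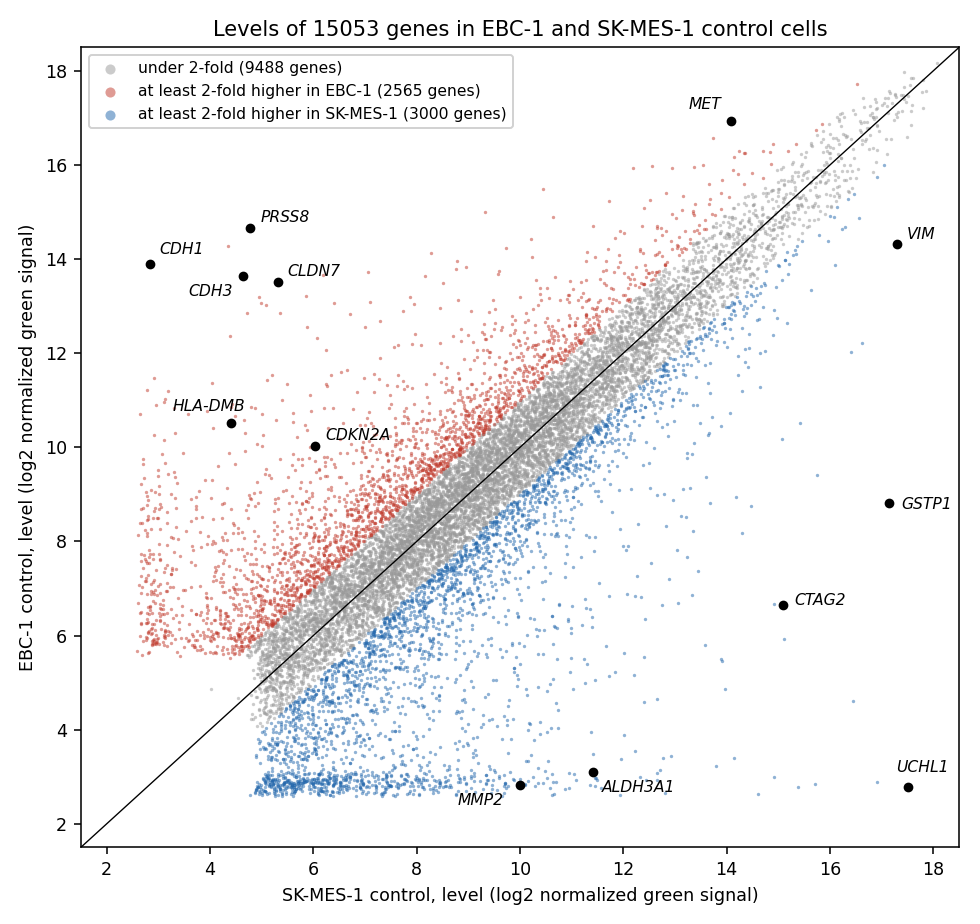
Level of each of 15053 genes in the green channel of SK-MES-1 (x axis) and EBC-1 (y axis), in log2 units, with the line of equality. The 2565 genes higher in EBC-1 (red) and the 3000 higher in SK-MES-1 (blue) lie on either side of a dense diagonal, and *UCHL1*, *CDH1* and *GSTP1* are among the labeled genes far from it.

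The squamous label was checked against 30 squamous and basal markers, of which 21 had a counted probe. *KRT5*, *KRT6A*, *KRT6B*, *DSG3*, *DSC3*, *CLCA2*, *IVL*, *BNC1* and *FAT2*, which mark basal cells or their differentiation, had no counted probe in either line. A gene without a counted probe was well above background in neither line or had no probe matched to its symbol. Only 24782 of 50096 accessions on the array were matched. These cases were not separated, here or below, so such a gene is not shown to be silent. The level of *TP63*, the master regulator of basal cells, was 4.56 in EBC-1, where it was not well above background, against 5.34 in SK-MES-1, where it barely was. The level of *SOX2* was 7.58 in EBC-1 against 6.48 in SK-MES-1, a 2.14-fold difference. Of the squamous list, 8 genes were higher in EBC-1 against 5 in SK-MES-1, beside 17.0% and 19.9% of all genes. Its median difference was -0.04, so the list did not lean to either line.

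The squamous markers that were measured split by gene. *SPRR1B*, a cornified envelope precursor, was at least 25.4-fold higher in EBC-1 (levels 9.43 and 3.19), and *LY6D*, a surface marker of stratified epithelium, at least 4.95-fold. *S100A2*, a calcium-binding protein of basal cells, was higher in SK-MES-1, at 12.03 in EBC-1 against 16.40 in SK-MES-1 (-4.37 ± 0.20). The desmosome plaque gene *PKP1* was at least 6.87-fold higher in SK-MES-1, and the basal keratins *KRT14* and *KRT17* at least 2.71-fold and 2.33-fold. *SFN*, the 14-3-3 protein of squamous epithelium, was bright in both lines (15.49 and 16.05). The simple epithelial keratins were also bright in both. *KRT7* stood at 17.08 and 16.19 and *KRT19* at 17.72 and 16.53, while *KRT18* was 3.41-fold higher in EBC-1. Of 13 adenocarcinoma markers, 5 were measured and only *NAPSA*, an aspartic protease, was past 2-fold (1.38, with levels of 6.35 and 4.98 near background). *NKX2-1* had no counted probe. Of 11 neuroendocrine markers, 2 were measured. *DLL3*, a Notch ligand, was similar (9.50 and 9.10) and *NCAM1*, an adhesion molecule, was at least 7.28-fold higher in SK-MES-1.

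Markers of cells that a culture should not hold were mostly dim. Of 15 blood and endothelial markers, 8 were measured, with a summed log2 level of 9.07 in EBC-1 against 8.64 in SK-MES-1, and *PECAM1* and *VWF* had no counted probe. Of 12 fibroblast markers, 7 were measured, with a summed log2 level of 9.38 in EBC-1 against 12.4 in SK-MES-1. The sum in SK-MES-1 rested on *COL1A1* (7.91 and 12.09) and *THY1* (2.75 and 9.46). Of the 7 genes, 4 were higher in SK-MES-1 and 2 in EBC-1, beside 19.9% and 17.0% of all genes. Of the same 7, 3 were well above background in SK-MES-1 only. Their median of -2.52 turned to 0.61 when both lines had to be well above background. The defining fibroblast genes *DCN*, *LUM*, *COL1A2* and *COL3A1* had no counted probe in either line.

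Epithelial junction genes were on the EBC-1 side. Of 24 measured genes, 18 were higher in EBC-1 against 0 in SK-MES-1, with a median difference of 2.04 (1.22 after normexp), beside 17.0% of all genes higher in EBC-1 and a median of -0.01. *CDH1* encodes E-cadherin, the adhesion receptor of adherens junctions. Its level was 13.90 in EBC-1 against 2.84 in SK-MES-1, where it was not well above background, and it was at least 562-fold higher in EBC-1. *CDH3*, P-cadherin of basal epithelium, stood at 13.64 and 4.63 and was at least 469-fold higher. Both classical epithelial cadherins were therefore measured in EBC-1 alone. *CLDN7*, a tight junction claudin, had the largest difference on the EBC-1 side among genes measured in both lines, 13.51 against 5.31 (8.20 ± 0.31, 294-fold). *EPCAM*, an adhesion molecule that binds claudin-7, was 22.9-fold higher (14.24 and 9.72). The desmosome genes *DSP* (9.93-fold) and *JUP* (6.19-fold) followed, and differed less. SK-MES-1 did not lack all junction genes. *CLDN4* stood at 16.44 and 14.89, a 2.93-fold difference, and *PERP*, a desmosomal p53 target, had levels of 13.25 and 14.10 (-0.85 ± 0.20).

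Regulators of the epithelial state showed the largest median of all lists on the EBC-1 side. The members of this list were chosen with earlier results of these data known, and 8 were well above background in EBC-1 only. Its rank and counts are therefore descriptive. Of 15 measured epithelial transcription, splicing and membrane protease genes, 13 were higher in EBC-1 against 0 in SK-MES-1, with a median of 5.16, or 4.02 with genes of 1 line at their bound and 1.81 after normexp. *ESRP1* and *ESRP2* encode the splicing factors of epithelial exons. *ESRP1* was at least 18.0-fold higher in EBC-1 and *ESRP2* was 46.7-fold higher. The transcription factors *OVOL1*, *EHF* and *GRHL2* were well above background in EBC-1 only, at least 16.2-fold, 45.5-fold and 7.46-fold higher. Of the list, *KLF4* and *KLF5* were the 2 genes under 2-fold. The matriptase system was a part of the same pattern. *ST14*, matriptase, stood at 12.90 and 7.74 (35.7-fold), its partner *PRSS8*, prostasin, was at least 943-fold higher (14.66 and 4.78), and the inhibitor *SPINT1* was 76.3-fold higher (12.32 and 6.07). The recycling GTPase *RAB25* of the same list was at least 69.8-fold higher (10.89 and 2.95). Outside the list, and named for their size alone, *CRB3*, an apical polarity protein, was at least 85.9-fold and *LAD1*, an anchoring filament protein, 162-fold higher (13.21 and 5.86).

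ZEB, SNAI and TWIST repressors bind the E-box, so the promoters of these genes were searched for the 6 letters CAGGTG on both strands, in 250 bases before and 50 bases after each start in RefSeq (GRCh38.p14). The sequences of *RAB25* and *DSP* are shown because each holds 2 matches, in capitals, which read CACCTG where the match is on the other strand.
RAB25 promoter, chr1:156060910-156061209, plus strand: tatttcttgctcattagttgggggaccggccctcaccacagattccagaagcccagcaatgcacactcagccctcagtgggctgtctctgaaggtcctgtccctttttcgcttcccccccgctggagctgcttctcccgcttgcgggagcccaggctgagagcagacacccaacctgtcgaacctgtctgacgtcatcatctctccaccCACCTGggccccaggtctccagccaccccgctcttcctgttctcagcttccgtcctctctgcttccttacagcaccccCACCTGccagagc
DSP promoter, chr6:7541421-7541720, plus strand: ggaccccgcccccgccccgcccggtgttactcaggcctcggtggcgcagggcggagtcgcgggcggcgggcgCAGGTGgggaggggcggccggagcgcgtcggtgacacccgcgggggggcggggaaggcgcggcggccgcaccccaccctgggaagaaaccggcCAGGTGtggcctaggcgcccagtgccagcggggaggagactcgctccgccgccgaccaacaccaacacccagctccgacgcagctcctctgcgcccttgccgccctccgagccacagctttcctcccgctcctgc Counted from the start of the transcript, the matches begin at -41 and 38 in *RAB25* and at -178 and -85 in *DSP*. The *RAB25* window has 9 CpG pairs and that of *DSP* 37. The letters occur in 20.6% of all 27305 promoters and in 19.1% of those of genes with a value. They occur in 25.2% of promoters of genes higher in EBC-1 and in 17.1% of those of genes higher in SK-MES-1. Among genes measured in EBC-1 only and at least 4-fold higher by the bound, 62 of 177 promoters held them (35.0%), against 17.5% for the corresponding genes of SK-MES-1 and 17.7% for genes under 2-fold. Of 14 junction genes with a promoter in the table, 6 held a match (42.9%). The EBC-1-only promoters also had fewer CpG pairs, with a median of 11 against 25 for genes with a value, and the part of base composition in these shares was not tested. A match describes the letters of the window and does not show that a factor binds there.

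Mesenchymal genes were on the SK-MES-1 side. Of 24 measured genes, 17 were higher in SK-MES-1 and 3 in EBC-1, with a median of -2.21 (-1.13 at the bounds and -0.86 after normexp), beside 19.9% of all genes higher in SK-MES-1. *VIM*, vimentin, was bright in both lines, at 14.31 in EBC-1 against 17.29 in SK-MES-1 (-2.98 ± 0.20, 7.88-fold). *ZEB1*, a repressor of E-cadherin, stood at 3.97, not well above background, and 8.93, and was at least 11.1-fold higher in SK-MES-1. *TWIST1* and *TWIST2* were at least 5.73-fold and 19.4-fold higher, although the 2 probes of *TWIST2* differed in size (-9.35 and -4.62). *PRRX1*, a homeobox gene of mesenchyme, was at least 26.1-fold higher (2.91 and 10.16), and *VCAN*, the matrix proteoglycan versican, at least 21.5-fold. The exceptions were *SNAI1*, another E-cadherin repressor, at 10.48 and 8.51 (3.93-fold higher in EBC-1), the matrix glycoprotein *TNC* (3.79-fold higher in EBC-1) and the lysyl oxidase *LOXL2* (1.08). *CDH2*, N-cadherin, was measured in both lines and differed by 2.13-fold (11.09 and 12.18). The lines thus differed more in epithelial cadherins than in N-cadherin.

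Matrix genes were on the same side as the mesenchymal genes. Of 18 measured collagens, 14 were higher in SK-MES-1 and 1 in EBC-1, with a median of -2.61 (-1.59 after normexp), beside 19.9% and 17.0% of all genes. Their summed log2 level was 13.7 in EBC-1 against 17.7 in SK-MES-1. The basement membrane chain *COL4A2* stood at 10.18 and 15.08 (29.8-fold), *COL18A1*, the source of endostatin, at 10.52 and 15.42 (29.9-fold), and the microfibril chain *COL6A1* at 12.21 and 16.63 (21.4-fold). The exception was *COL17A1*, the hemidesmosome collagen of basal epithelium, at least 4.49-fold higher in EBC-1. Of 28 integrin and laminin genes, 11 were higher in SK-MES-1 and 4 in EBC-1. *ITGA11*, a collagen receptor of mesenchymal cells, was 22.6-fold higher in SK-MES-1 (6.18 and 10.68), and *ITGB6*, an epithelial integrin, at least 6.55-fold higher in EBC-1.

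Extracellular proteases were mixed. Of 23 measured proteases and inhibitors, 12 were higher in SK-MES-1 and 7 in EBC-1, beside 19.9% and 17.0% of all genes. *MMP2*, gelatinase A, was at least 23.2-fold higher in SK-MES-1 (2.82 and 9.99), and the inhibitor *TIMP4* at least 89.2-fold. *MMP9*, gelatinase B, went the other way, at 10.21 in EBC-1 against 5.68 in SK-MES-1 (23.2-fold). The kallikrein *KLK6* was at least 61.3-fold higher in EBC-1. Urokinase *PLAU* (14.96 and 12.95) and its receptor *PLAUR* (13.02 and 10.36) were higher in EBC-1, while tissue plasminogen activator *PLAT* was 15.1-fold higher in SK-MES-1 (8.37 and 12.29). The gelatinases and the plasminogen activators thus lay on opposite sides.

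**Figure D2:**
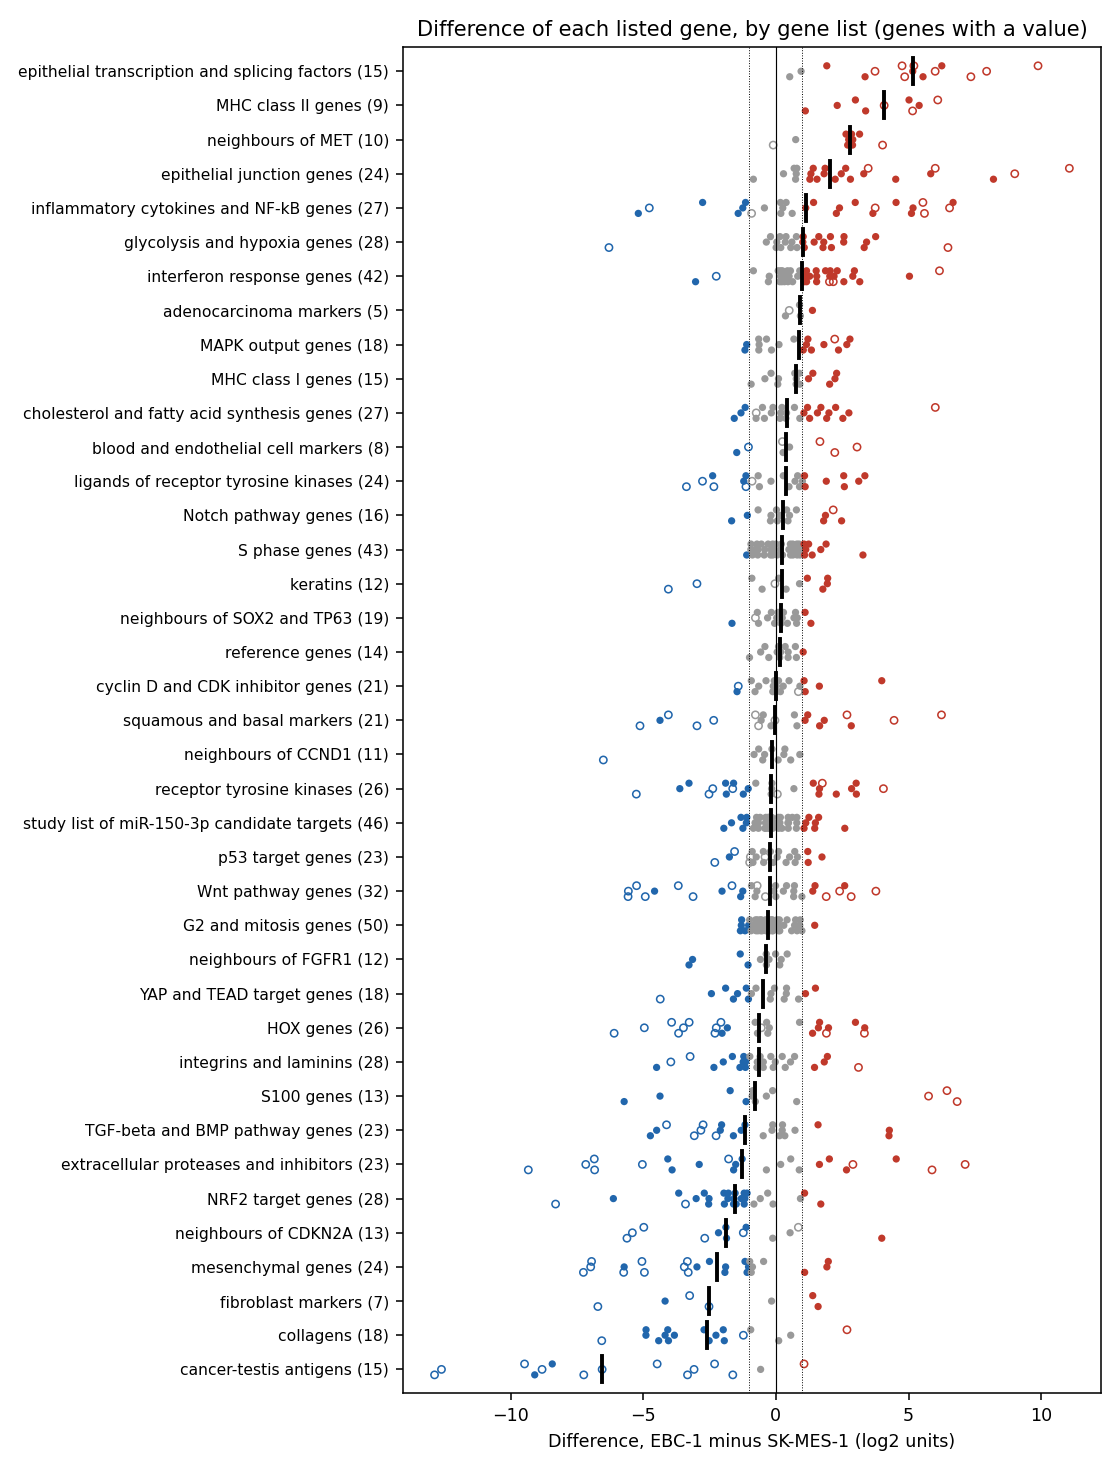
Log2 difference (EBC-1 minus SK-MES-1, x axis) of each gene in lists with at least 5 measured genes, with the median as a bar, the 2-fold limits as dotted lines and open points for genes well above background in 1 line. The medians of epithelial factors and MHC class II genes lie farthest on the EBC-1 side (5.16 and 4.08) and cancer-testis antigens farthest on the SK-MES-1 side (-6.55).

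Receptor tyrosine kinases split between the lines. Of 26 measured receptors, 9 were higher in EBC-1 against 11 in SK-MES-1, beside 17.0% and 19.9% of all genes. Their median was -0.17. *MET*, the receptor for hepatocyte growth factor, stood at 16.94 in EBC-1 against 14.09 in SK-MES-1 (2.85 ± 0.20, 7.22-fold). On the scale normalized over all 8 green channels it was 16.86 in EBC-1, 13.87 in SK-MES-1, 14.46 to 14.65 in A549 and 8.20 to 8.36 in SBC-3. EBC-1 was thus the highest of the 4 lines. The related receptor *MST1R* was 2.65-fold higher in EBC-1, *ERBB3*, the neuregulin receptor, 8.14-fold (8.59 and 5.57) and *ERBB2* 3.12-fold. *EGFR* differed by less than 2-fold (7.71 and 8.47). On the SK-MES-1 side were the fibroblast growth factor receptors *FGFR1* (9.69-fold, 7.15 and 10.43) and *FGFR3* (12.3-fold, 5.81 and 9.43), *AXL* (3.72-fold), *IGF1R* (3.65-fold) and *EPHA4* (at least 12.4-fold). The ephrin receptor *EPHB4* was 8.18-fold higher in EBC-1, and *EPHA1* was also on that side.

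Among 24 measured ligands of these receptors, 7 were higher in each line. *HBEGF*, an EGFR ligand, was 10.2-fold higher in EBC-1 (11.27 and 7.91) and *VEGFA* 5.88-fold (12.66 and 10.10). *HGF*, the MET ligand, was not well above background in EBC-1 and stood at 5.69 in SK-MES-1, close to background. Genes that ERK signaling induces were more often on the EBC-1 side. Of 18 measured, 9 were higher in EBC-1 against 2 in SK-MES-1, beside 17.0% and 19.9% of all genes, with a median of 0.85. *DUSP6*, the ERK phosphatase, stood at 12.70 and 9.91 (6.92-fold), *IER3* at 15.08 and 12.40 (6.37-fold) and *SPRY1* at 10.19 and 7.83 (5.13-fold). The related inhibitors *SPRY2* and *SPRED1* were 2.15-fold and 2.25-fold higher in SK-MES-1, so the list did not move as a block.

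*MET* was not alone on chromosome 7. Of 10 measured genes in a list of *MET* and its neighbors, 8 were higher in EBC-1 against 0 in SK-MES-1. The list had a median of 2.80 (1.62 after normexp). From *TES* to *LSM8*, all 10 measured genes in a row were higher in EBC-1, and the 9 that were well above background in both lines lay within 2.64 and 3.15. These were *TES* (3.15), a focal adhesion protein, the caveolins *CAV2* (2.90) and *CAV1* (2.74), *MET* (2.85), the actin capping gene *CAPZA2* (2.89), *ST7* (2.70) with its antisense and overlapping transcripts, and *LSM8* (2.64), an RNA-binding protein of the U6 particle. Genes of unrelated function within this stretch thus shared a difference of about the same size. The ends of the stretch were set with the differences known, so its evenness partly follows from where it was cut. *MDFIC*, just before *TES*, differed by 0.75, and after the stretch *TSPAN12* and *FAM3C* differed by -0.10 and -0.27. *ANKRD7*, between *LSM8* and *TSPAN12*, was at least 4.59-fold higher in EBC-1 but was not well above background in SK-MES-1. A transcript and its antisense partner at *ST7* cannot be separated by name alone. DNA copy number was not measured, and its part in the stretch was not tested.

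The other LUSQ loci listed for this comparison gave smaller medians. Of 19 measured genes around *SOX2* and *TP63* on the long arm of chromosome 3, 16 were under 2-fold, with a median of 0.19. Of 11 around *CCND1*, 10 were under 2-fold. The exception was *ANO1*, a chloride channel gene, at -6.51 and not well above background in EBC-1. Of 12 around *FGFR1*, 8 were under 2-fold and 4 were higher in SK-MES-1, with *FGFR1* (-3.28) and *LETM2* (-3.14) beside *NSD3* (0.14) and *DDHD2* (-0.01). In the search along the chromosomes, short runs of 9 to 12 genes touched some of these loci. That from *SOX2* to *YEATS2* was higher in EBC-1 (median 1.04), and those from *RPL39L* to *P3H2* and from *PLPP5* to *SFRP1*, which holds *FGFR1*, were higher in SK-MES-1 (-1.11 and -0.96). The run from *RPL39L* holds *TP63*, and *CCND1* was in no run.

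Part of the short arm of chromosome 9, before *CDKN2A*, lay on the SK-MES-1 side. Beyond *CDKN2A* the genes were mixed, with *PLAA* (-1.86) and *CAAP1* (-1.12) beside *MOB3B* (1.74) and *B4GALT1* (2.65). Of 13 measured genes in a list of *CDKN2A* and its neighbors, 9 were higher in SK-MES-1 and 1, *CDKN2A* itself, in EBC-1. The list had a median of -1.86, which was -0.18 after normexp and -0.48 with no filter on dim probes. The run reached from *WASHC1* to *MTAP*, with 42 of 56 genes higher in SK-MES-1 and a median of -1.88. Over the 33 genes measured in both lines, the median was -1.54. *KLHL9* stood at 9.19 and 11.36, *NFIB*, a transcription factor, at 5.60 and 8.24, and *PLIN2*, a lipid droplet coat protein, at 4.31 and 9.29 (at least 14.2-fold). *JAK2*, a cytokine receptor kinase, was at least 5.74-fold higher in SK-MES-1. *CDKN2A* itself went the other way. Its level was 10.03 in EBC-1 against 6.04 in SK-MES-1, a difference of 3.99 with probes at 2.53 and 5.45, and its neighbor *MTAP* stood at 9.17 and 9.29. Set against A549, the genes of the run were lower in EBC-1, with a median of -1.74, while SK-MES-1 had a median of 0.17. The difference was thus on the side of EBC-1.

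**Figure D3:**
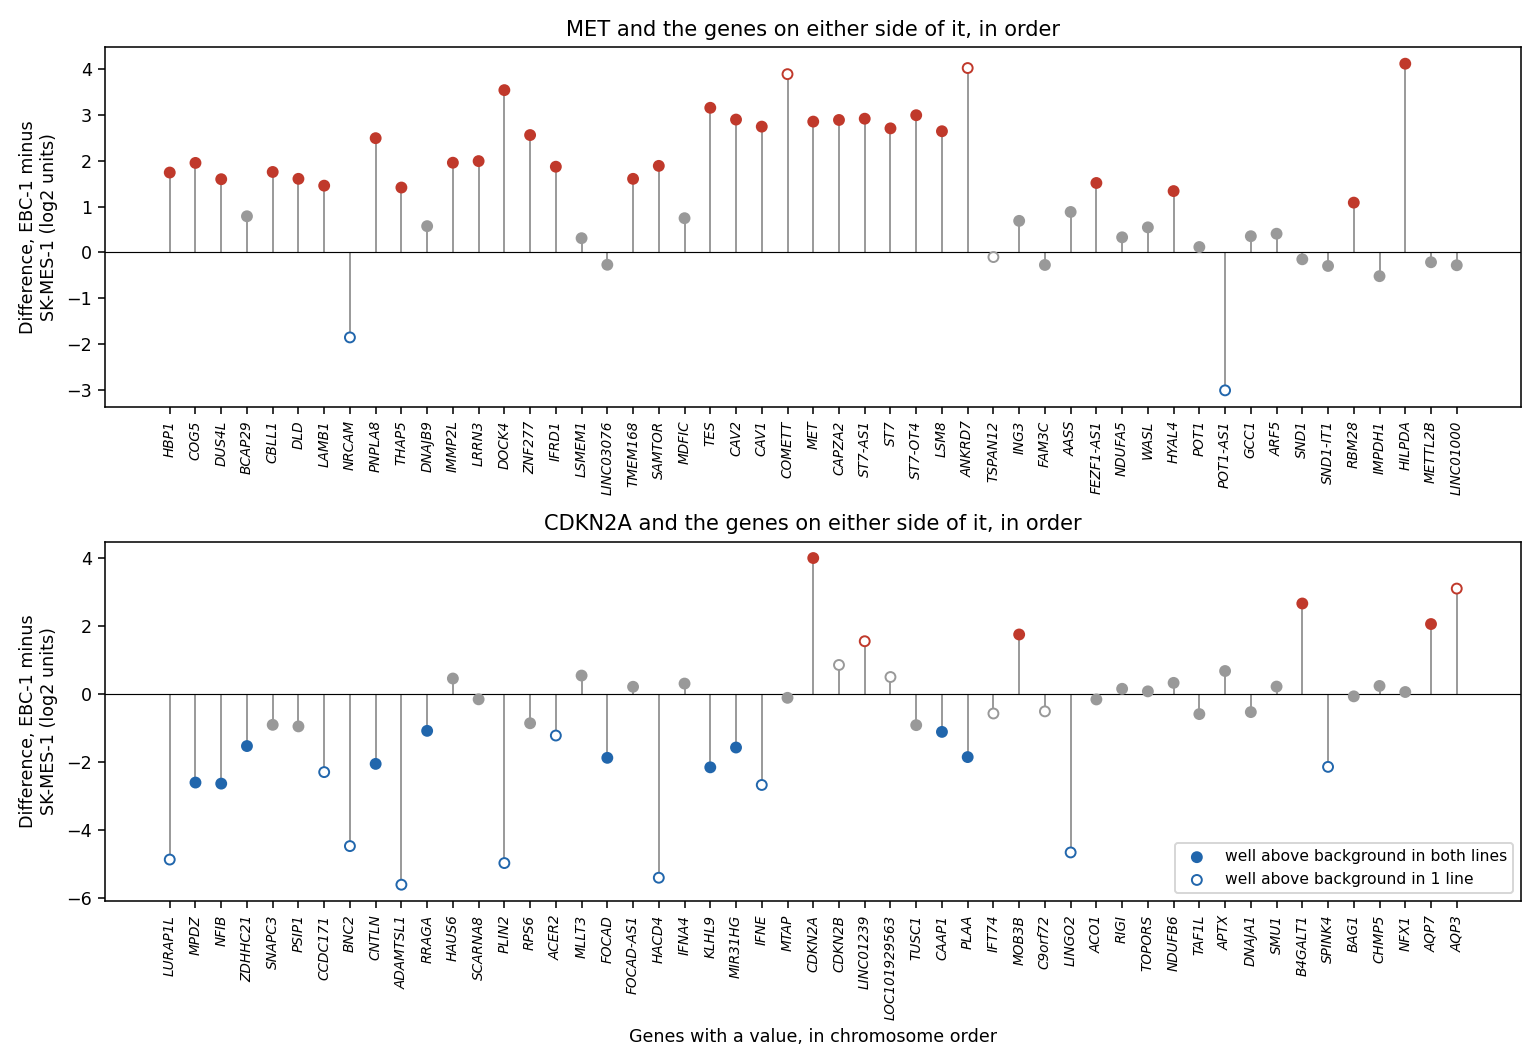
Log2 difference (EBC-1 minus SK-MES-1, y axis) of genes with a value in chromosome order (x axis) around *MET* and around *CDKN2A*, with open points for genes well above background in 1 line. Genes around *MET* form a plateau near 2.85 that reaches from *TES* to *LSM8*, and genes before *MTAP* lie mostly below 0 while *CDKN2A* is at 3.99.

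Runs of this kind were common. In windows of 9 consecutive genes with a median past 2-fold, merged where they overlapped, there were 108 runs higher in EBC-1 against 153 in SK-MES-1. In windows of 15 genes there were 47 and 70, which held 3297 genes (21.9% of those ordered). The same search found 0 runs in each of the 6 pairs of repeat channels of SBC-3 or A549. Only 0.585% to 0.795% of genes were past 2-fold in those pairs, so runs could hardly occur there. The 0 is thus no measure of how many runs 2 different lines would show. After normexp background correction there were 19 runs in windows of 9 genes, in place of 261. The longest run lay on chromosome 7, from *MAGI2-AS3* to *POT1*. It held 207 genes, of which 146 were past 2-fold, with a median of 1.61 (1.63 over the 178 genes measured in both lines). The genes were above A549 in EBC-1 (1.11) and below it in SK-MES-1 (-0.36). This run holds *MET*, the cell cycle kinase *CDK6* (1.64), the replication helicase gene *MCM7* (3.28), *NAMPT*, an enzyme of NAD synthesis (3.47), *EPHB4* and *PEG10*, an imprinted gene of retroviral origin that was at least 88.1-fold higher in EBC-1. On the SK-MES-1 side, the longest runs were 147 genes on chromosome 4 from *SCARNA22* to *DANCR* (74 of them past 2-fold), 104 on chromosome 2 from *FASTKD1* to *HSPD1* (median -1.15) and 62 on chromosome 1 from *FAM20B* to *CAMSAP2* (-1.26). Over the genes measured in both lines, the medians of these runs were -0.77, -1.01 and -0.87. The run on chromosome 2 was lower than A549 in EBC-1 (-1.30) and level with it in SK-MES-1 (0.08). By chromosome, 30.7% of genes on chromosome 7 were higher in EBC-1, and 36.2% on chromosome 21 and 34.3% on chromosome 4 were higher in SK-MES-1, beside 17.0% and 19.9% of all genes.

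**Figure D4:**
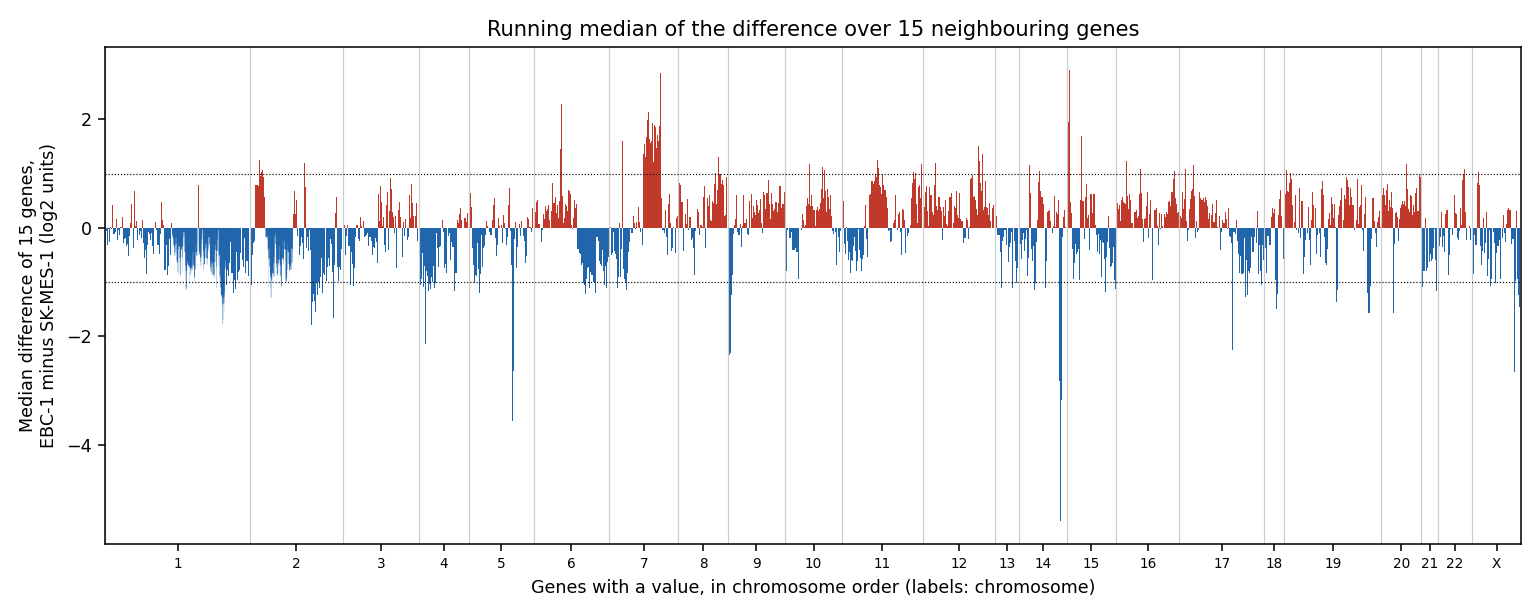
Running median over 15 neighboring genes of the log2 difference (EBC-1 minus SK-MES-1, y axis), in order along the chromosomes (x axis), with the 2-fold limits as dotted lines. A long block lies above 0 on chromosome 7, where 207 genes form a run with a median of 1.61. Another lies below 0 on part of the short arm of chromosome 9, with a median of -1.88.

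Some runs were clusters of related or imprinted genes. On chromosome 14, the run from *DEGS2* to *TECPR2* held the maternally expressed *MEG3* (at least 8.02-fold higher in SK-MES-1), *MEG9* (at least 4.49-fold) and 22 snoRNA genes of the *SNORD113* and *SNORD114* families, all higher in SK-MES-1 and none well above background in EBC-1. *DLK1*, the paternally expressed gene of this locus, was close to background in both lines (5.94 and 6.15). Over the 16 genes of the run measured in both lines the median was only -0.17, so the run rested on genes measured in 1 line. On chromosome 15, the run from *NF1P2* to *NSMCE3* had the opposite direction. The 7 measured *SNORD116* genes were all higher in EBC-1, with a median of 3.68, beside *SNRPN* (10.45 and 8.49), *NDN* (10.94 and 8.24), *MAGEL2* (at least 6.17-fold) and *UBE3A* (9.07 and 7.88). *MKRN3*, at the edge of the same imprinted domain, was at least 3.05-fold higher in SK-MES-1. The clustered protocadherins on chromosome 5, adhesion proteins of neurons, were on the SK-MES-1 side. All 14 measured *PCDHB* genes and 10 of 13 *PCDHG* genes were higher there, with *PCDHB9* at least 36.0-fold. Over the 22 genes of the run from *DND1* to *ARAP3* measured in both lines, the median was -0.51, against -1.90 over all its genes. Of 33 zinc finger genes in the run from *IGLON5* to *LENG1* on chromosome 19, 28 were higher in SK-MES-1 and 0 in EBC-1, with a median of -1.58. Members of these families are alike in sequence, and small RNA probes may also bind the host transcript, so counts of members are not counts of independent genes. These families were picked after the runs were seen.

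HOX genes, which keep a memory of body position, differed by cluster. Of 26 measured, 8 were higher in EBC-1 against 11 in SK-MES-1, beside 17.0% and 19.9% of all genes. In the HOXA cluster, 6 of 9 were higher in EBC-1, among them *HOXA5* (9.87 and 6.53, 10.2-fold), while *HOXA10* differed by -0.25. In the HOXB cluster, 8 of 9 were higher in SK-MES-1 and 0 in EBC-1. *HOXB2* was at least 11.3-fold and *HOXB4* at least 10.4-fold higher. *HOXD10* and *HOXD8* were also on the SK-MES-1 side.

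MHC class II genes, which present peptides to helper T cells and are usually silent in epithelium unless induced by interferon gamma, were on the EBC-1 side. All 9 measured genes of 11 were higher in EBC-1, with a median of 4.08 (3.38 at the bounds and 1.56 after normexp), beside 17.0% of all genes. *CIITA*, the master transactivator of the class, stood at 9.13 and 5.75 (3.38 ± 0.26, 10.4-fold). The invariant chain *CD74* was at least 29.3-fold higher (9.64 and 4.49), *HLA-DRA* 32.4-fold (10.03 and 5.01) and the peptide exchange gene *HLA-DMB* at least 53.8-fold. The 5 probes of *HLA-DQB1* gave 5.17 to 5.86. Probes of polymorphic HLA genes can depend on the allele, and the part of this was not tested. On the scale of all 8 green channels, *CIITA* was 9.18 in EBC-1, 5.75 in SK-MES-1, 2.70 to 2.71 in A549 and 2.71 to 2.72 in SBC-3. SK-MES-1 was thus between EBC-1 and the other lines. Class I genes differed less. Of 15 measured, 5 were higher in EBC-1 against 0 in SK-MES-1, with *B2M*, the common light chain, at 16.17 and 14.14 (4.07-fold), and *PSMB9*, an immunoproteasome subunit, 4.89-fold higher.

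Interferon response genes leaned the same way. Of 42 measured, 21 were higher in EBC-1 against 2 in SK-MES-1, with a median of 0.98 (0.36 after normexp), beside 17.0% and 19.9% of all genes. *IFITM1*, which blocks virus entry, stood at 11.30 and 6.26 (32.8-fold), *OAS1*, a sensor of double-stranded RNA, at 9.39 and 6.22 (8.94-fold), and *IFIT1* at 11.88 and 8.92 (7.77-fold). The exceptions were *MX2* (8.16-fold higher in SK-MES-1, 7.45 and 10.48) and *HERC5* (at least 4.36-fold). Cytokine and NF-kB genes were also more often higher in EBC-1, 14 of 27 against 6, with a median of 1.12 (0.59 after normexp). The neutrophil chemokines *CXCL1* (13.05 and 7.94, 34.5-fold), *CXCL2* (13.95 and 8.78, 36.0-fold), *CXCL3* (13.08 and 6.40, 102-fold) and *CXCL8* (at least 29.9-fold) were higher in EBC-1. *CXCL5*, of the same family and receptor, was 36.4-fold higher in SK-MES-1 (6.88 and 12.07), and the monocyte chemokine *CCL2* at least 22.3-fold. Colony-stimulating factors *CSF2* (23.1-fold) and *CSF3* (at least 10.4-fold) and the inhibitor *NFKBIA* (15.94 and 12.95) were higher in EBC-1. The 2 lines thus expressed different chemokines.

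The next genes were named for the size of their difference or as members of the S100 list, and not as a group. The iron-sequestering lipocalin *LCN2* stood at 13.73 and 7.06 (102-fold), the acute phase protein *SAA1* at 12.84 and 6.72 (69.8-fold) and complement factor B, *CFB*, at 11.53 and 5.20 (80.8-fold). *DEFB4A*, an inducible beta-defensin, was at least 733-fold higher (14.28 and 4.35), though its near-identical copy cannot be told apart by the probe. *S100A9* and *S100A8*, the subunits of calprotectin, were at least 64.7-fold and 18.8-fold higher. *PDZK1IP1*, a small membrane protein of epithelia, was 269-fold higher (13.06 and 4.99), and *SYK*, a kinase best known from B cells, at least 97.1-fold (11.37 and 4.04). Over 13 measured S100 genes, 3 were higher in EBC-1 against 4 in SK-MES-1, beside 17.0% and 19.9% of all genes. *S100A4*, a metastasis-associated member, was 52.8-fold higher in SK-MES-1 (8.74 and 14.46).

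NRF2 target genes, which detoxify electrophiles and supply glutathione and NADPH, were on the SK-MES-1 side. Of 28 measured, 21 were higher in SK-MES-1 and 2 in EBC-1, with a median of -1.56 (-0.99 after normexp), beside 19.9% and 17.0% of all genes. *ALDH3A1*, an aldehyde dehydrogenase, stood at 3.10 and 11.41 and was at least 61.7-fold higher. *AKR1C1*, an aldo-keto reductase, was 69.9-fold higher (8.18 and 14.30), although its paralogs are near-identical. The cystine carrier *SLC7A11* (11.16 and 13.68, 5.74-fold) and *GCLC*, the catalytic subunit of glutathione synthesis (11.01 and 12.95, 3.85-fold), differed less. *NQO1* was 2.29-fold higher in SK-MES-1, and *HMOX1* and *TXNRD1* were under 2-fold. The efflux pumps *ABCC1* (3.23-fold) and *ABCC2* were the genes higher in EBC-1. *KEAP1*, the repressor of NRF2, was itself 2.25-fold higher in SK-MES-1 (10.65 and 11.82), and *NFE2L2*, the gene of NRF2, had no counted probe. Against A549, the list had a median of -1.90 in EBC-1 against -0.39 in SK-MES-1, and against SBC-3 of 1.23 and 3.02. The difference of SK-MES-1 from A549 was thus smaller than that of EBC-1.

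Glutathione transferases outside the list had the most extreme values of this group. *GSTP1*, the pi class enzyme, stood at 8.81 in EBC-1 against 17.15 in SK-MES-1 (-8.34 ± 0.07, 323-fold). On the scale of all 8 green channels it was 8.85 in EBC-1, 17.07 in SK-MES-1, 17.15 to 17.25 in A549 and 16.56 to 16.72 in SBC-3. EBC-1 was thus the line that stood apart. *GSTM3*, a mu class enzyme, was at least 702-fold higher in SK-MES-1 (2.99 and 14.91), and was also present in A549 (11.28 to 11.29) and SBC-3 (15.16 to 15.17). The promoters of *GSTP1* and *ME1*, malic enzyme, are shown because they hold the core letters of the antioxidant element, TGACNNNGC (both strands searched), in capitals.
GSTP1 promoter, chr11:67583562-67583861, plus strand: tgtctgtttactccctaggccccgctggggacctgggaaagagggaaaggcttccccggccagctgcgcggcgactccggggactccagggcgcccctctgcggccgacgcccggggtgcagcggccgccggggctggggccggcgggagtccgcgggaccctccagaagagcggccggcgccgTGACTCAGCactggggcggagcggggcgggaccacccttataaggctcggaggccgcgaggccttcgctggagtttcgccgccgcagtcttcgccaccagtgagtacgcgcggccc
ME1 promoter, chr6:83431002-83431301, minus strand: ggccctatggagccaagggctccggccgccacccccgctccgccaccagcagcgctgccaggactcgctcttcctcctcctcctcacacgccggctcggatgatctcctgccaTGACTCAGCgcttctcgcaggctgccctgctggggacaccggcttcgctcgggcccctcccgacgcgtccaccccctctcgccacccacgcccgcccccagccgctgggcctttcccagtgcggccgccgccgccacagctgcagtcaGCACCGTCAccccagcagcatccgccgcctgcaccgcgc The sequences are from RefSeq (GRCh38.p14), in the direction of transcription. Counted from the start of the transcript, the match begins at -66 in *GSTP1*, and the matches in *ME1* at -137 and 12. The *GSTP1* window has 36 CpG pairs in 300 bases, and methylation was not measured. The letters occur in 13.6% of all promoters, in 15.1% of those of genes with a value, in 14.8% of genes higher in EBC-1 and in 13.9% of genes higher in SK-MES-1. In the NRF2 list, 6 of 20 promoters held them (30.0%). The share was 33.3% in cancer-testis antigens (4 of 12), 21.4% in junction genes (3 of 14) and 15.4% in collagens (2 of 13). It was 14.3% in MHC class II genes (1 of 7) and 0.0% in epithelial factors (0 of 7). The share is thus not particular to the NRF2 list. *ME1* stood at 7.51 and 9.11 and was 3.03-fold higher in SK-MES-1, far less than *GSTP1* with the same letters.

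Cancer-testis antigens, which are normally limited to germ cells and often become active in tumors, were on the SK-MES-1 side where measured. Of 15 measured of 34 listed, 13 were higher in SK-MES-1 and 1 in EBC-1, with a median of -6.55 (-3.82 at the bounds, -1.38 after normexp and -0.43 with no filter on dim probes). The count is to be read beside 19.9% of all genes higher in SK-MES-1 and 17.0% in EBC-1. Of the 15, 11 were well above background in SK-MES-1 only and entered through that line. The count and the median thus partly follow from the filter. *MAGEA1* was at least 69.0-fold higher (2.75 and 11.57), *MAGEA12* at least 177-fold (3.45 and 12.92) and *SPANXA1* at least 1216-fold (2.84 and 15.71). Of those measured in both lines, *CTAG2* stood at 6.66 and 15.09 (345-fold). The 2 probes of *MAGEA6* differed in size (-12.72 and -5.47). Outside the list, *XAGE1A* was at least 2791-fold and *CTAG1A*, the gene of NY-ESO-1, at least 2021-fold higher. The exceptions were *TEX19*, at least 2.02-fold higher in EBC-1 and near background, and *SSX2* (-0.58). These genes lie in families of near-identical copies, so a value can belong to a neighboring copy. On the scale of all 8 green channels, *CTAG1A* was 16.37 in SK-MES-1 and at most 4.60 in EBC-1, A549 and SBC-3, while *XAGE1A* was also present in A549 (15.18 to 15.25).

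The largest bound of all genes was that of *UCHL1*, a deubiquitinase of neurons. It stood at 2.78 in EBC-1 against 17.51 in SK-MES-1 and was at least 4256-fold higher. In A549 it was 16.60 to 16.69 and in SBC-3 2.73 to 2.74, so that it was on or off in each line. *NR0B1*, an orphan nuclear receptor (at least 322-fold), *DPYSL3*, a cytoskeletal protein of neurons (at least 413-fold), and *TRIML2* (at least 164-fold) were likewise bright in SK-MES-1 and A549 and dim in EBC-1 and, except for *NR0B1* at 6.41 to 6.73, in SBC-3. *H4C5*, a histone gene with near-identical copies, and *GJC1*, connexin 45, were bright in SK-MES-1, A549 and SBC-3 and were not well above background in EBC-1. Among genes measured in both lines, the non-coding *LINC00942* (5.93 and 15.12, 585-fold), *IGFBP7*, a secreted IGF-binding protein (6.68 and 14.91, 301-fold), and *MRC2*, a collagen uptake receptor (9.41 and 15.74, 80.4-fold), were among the farthest on the SK-MES-1 side, as were *GSTP1* and *CTAG2*. *MAGEA6* ranked with them at -9.09 through a probe that was not well above background in EBC-1. It was -5.47 when both lines had to be well above background. *BEX1*, expressed in neurons, went the other way, at 13.03 in EBC-1 against 5.09 in SK-MES-1 (245-fold).

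Genes of glycolysis and the hypoxia response were on the EBC-1 side. Of 28 measured, 15 were higher in EBC-1 against 1 in SK-MES-1, beside 17.0% and 19.9% of all genes, with a median of 1.02. *NDRG1*, a stress-induced gene, stood at 15.97 and 12.56 (10.7-fold), *ANGPTL4*, an inhibitor of lipoprotein lipase, at 15.94 and 12.18 (13.5-fold), and the mitophagy receptor *BNIP3* at 14.70 and 12.65 (4.15-fold). The brain-type glycolytic enzymes *ALDOC* (at least 71.2-fold) and *ENO2* (3.33 ± 0.20) differed more than *PGK1* (2.04-fold) and *GAPDH* (1.71-fold). *CA12*, a hypoxia-induced carbonic anhydrase, was the exception, at least 12.2-fold higher in SK-MES-1. Oxygen and culture density are not given in the sources used here. Of 27 cholesterol and fatty acid synthesis genes, 11 were higher in EBC-1 against 3 in SK-MES-1, with a median of 0.40. The desaturases *FADS2* and *SCD* were 6.73-fold and 5.75-fold higher in EBC-1, and *SREBF2*, a transcription factor of sterol synthesis, 4.76-fold. Of 14 reference genes, 1 was past 2-fold, *PGK1*, and the list had a median of 0.16.

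Pathway genes of development were mixed. Of 23 measured TGF-beta and BMP genes, 12 were higher in SK-MES-1 and 3 in EBC-1, with a median of -1.17 (-0.48 at the bounds and -0.16 after normexp). The BMP target genes *ID2* (5.62 and 10.35, 26.6-fold) and *ID3* (8.33 and 12.83, 22.6-fold) were higher in SK-MES-1. The secreted antagonists *NOG*, which binds BMPs (12.19 and 7.91, 19.4-fold), and *FST*, which binds activin (9.87 and 5.60, 19.2-fold), were higher in EBC-1. *SMAD4*, the common mediator, stood at 7.48 and 9.53 (4.13-fold higher in SK-MES-1). Of 32 Wnt genes, 7 were higher in EBC-1 against 11 in SK-MES-1. The antagonist *DKK1* was 6.03-fold higher in EBC-1 (12.50 and 9.90), and the receptor *FZD7* was 23.8-fold higher in SK-MES-1 (6.15 and 10.73). Of 18 YAP and TEAD targets, 2 were higher in EBC-1 against 7 in SK-MES-1, with *CCN2* 5.40-fold higher in SK-MES-1. Of 16 Notch genes, 4 were higher in EBC-1 against 2 in SK-MES-1. Of 23 p53 targets, 3 were higher in each line. All counts in this paragraph are to be read against 17.0% and 19.9% of all genes. Those of Notch genes, of p53 targets and of Wnt genes higher in EBC-1 do not clearly exceed these shares. *CDKN1A*, the p21 gene, stood at 7.62 and 7.72.

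Proliferation genes were close in level in the control cells. Of 43 S phase genes, 34 were under 2-fold, with a median of 0.25, and of 50 G2 and mitosis genes 44 were, with a median of -0.29. *UNG*, which removes uracil from DNA, was higher in EBC-1 (15.04 and 13.14, 3.71-fold), as was *MCM6* of the replication helicase (2.58-fold). The proliferation marker *MKI67* stood at 9.12 and 9.82. Of 46 measured genes that the study picked as candidate targets of *miR-150-3p* from these same arrays, 33 were under 2-fold, with a median of -0.18. In this list, 7 were higher in EBC-1 against 6 in SK-MES-1, both below the 17.0% and 19.9% of all genes. Of 21 cyclin D and CDK inhibitor genes, 15 were under 2-fold, and *CDKN2A* was the farthest (3.99).

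The same difference was taken in the red channels, which hold RNA of the *miR-150-3p*-transfected cells of the same lines. The red channel shares the spots and the line with the green and differs by the transfection, so it is no replicate. Of the genes higher in EBC-1, 2510 (97.9%) were on the same side in red and 2073 (80.8%) were past 2-fold. Of those higher in SK-MES-1, 2951 (98.4%) were on the same side and 2459 (82.0%) past 2-fold. Across genes, which are not independent replicates, the green and red differences had a Pearson r of 0.94 and a Spearman rho of 0.90. All 60 genes named for their size were on the same side in red, with differences of at least 3.49 in size. For those measured in both lines this was set in advance, since the rule named only genes on the same side in red. The medians of the epithelial factors (5.16 in green and 5.45 in red), MHC class II genes (4.08 and 3.67), collagens (-2.61 and -2.81) and cancer-testis antigens (-6.55 and -5.69) were similar in both channels. The proliferation lists were not. S phase genes went from 0.25 to -1.23, G2 and mitosis genes from -0.29 to -1.58 and the candidate targets from -0.18 to -1.32, while cytokine genes went from 1.12 to 2.15. The study picked the candidate targets in part for lower levels in transfected EBC-1 cells on this same array. Their shift was thus partly set in advance, and they may overlap the other proliferation lists. In all, 11 genes were past 2-fold on opposite sides in green and red.

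**Figure D5:**
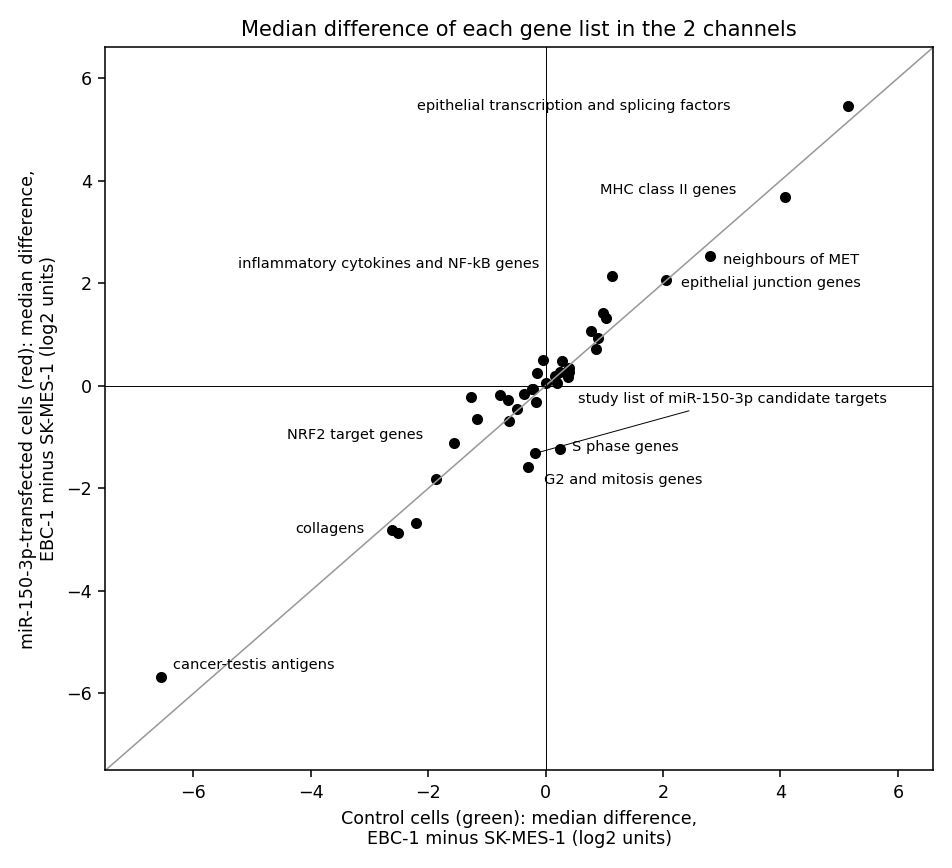
Median log2 difference (EBC-1 minus SK-MES-1) of each gene list with at least 5 measured genes in the green control channels (x axis) against the red *miR-150-3p* channels (y axis), with the line of equality. Most lists lie near the line, and S phase genes (0.25 in green, -1.23 in red), G2 and mitosis genes and the candidate targets lie below it. The candidate targets were picked by the study in part for a fall in EBC-1 on the same array.

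The A549 and SBC-3 control channels showed which LUSQ line stood apart for a given gene group, with all channels normalized together. Of the genes higher in EBC-1, 985 were also at least 2-fold above the means of both other lines, and for 469 SK-MES-1 was at least 2-fold below both. Of the genes higher in SK-MES-1, 1002 were above both, and for 842 EBC-1 was below both. By median, epithelial factors in EBC-1 stood 5.06 over A549 and 5.77 over SBC-3, against -0.01 and 0.28 in SK-MES-1. Single members differed, and *PRSS8* was also bright in SBC-3 (11.45 to 11.50, against 14.44 in EBC-1). Collagens were on both sides of A549, at -0.68 in EBC-1 against 1.66 in SK-MES-1. Cancer-testis antigens were higher in SK-MES-1 (4.53) and lower in EBC-1 (-0.91). Interferon genes were above A549 in both LUSQ lines, by 2.77 in EBC-1 against 1.67 in SK-MES-1, and p53 targets were below it in both (-1.05 and -1.02). The A549 and SBC-3 channels come from other experiments on the same slide, and culture and line cannot be told apart for them either.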

How the data were processed

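RNA of control and transfected cells had been labeled with Cy3 and Cy5 and hybridized to Agilent arrays. The authors deposited the output of Feature Extraction 12.1.1.1 (submitters' processing notes), with processed intensities that the software had background-subtracted, detrended and normalized between dyes. The deposited files name hg19. The study's methods state no normalization between arrays. A deposited table of the whole series was not used.

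Green processed intensities of 60901 non-control spots were log2-transformed and quantile normalized between the EBC-1 and SK-MES-1 channels, without the 50 and 59 spots marked as outliers. No spot was saturated (0). Spots of a probe, then probes of a gene, were averaged over probes well above background in at least 1 line, of which there were 27010 (19921 named). Of 50096 accessions, 24782 matched a symbol in RefSeq (GRCh38.p14), used for names, gene order and promoters only. Red channels were treated in the same way. For 3905 genes with several probes, 28 had probes past 2-fold on both sides. With 1 channel per line, no p-value was computed, and precision is limited by the number of arrays.

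Named genes were, per line, the 15 largest differences measured in both lines and on the same side in red, the 15 largest bounds, members of 40 lists, and genes of runs. The members and lists were chosen with earlier results of these data known. X-inactivation and Y-linked genes are not reported here. Alternatives were other scaling, background, dye, filter, probe, spot, threshold and window settings. The background alternative used median signals, as the files used here held no mean signal. The counting was tested on simulated data. Analyses used Python 3.11.15 (numpy 2.4.6, pandas 2.3.3, matplotlib 3.10.9), R 4.3.3 and limma 3.58.1.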

Additional observations from a re-analysis of the deposited data

Results flagged for a closer look

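S phase genes had a median difference between EBC-1 and SK-MES-1 of 0.25 in the green control channels and of -1.23 in the red channels of *miR-150-3p*-transfected cells. The list was picked out because its medians lie on opposite sides of 0 and are more than 1 log2 unit apart. The difference between the channels was not tested, since each line had 1 array.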

How the results depend on the processing

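With 2565 genes higher in EBC-1, 3000 in SK-MES-1, 5461 on the same side in red and 261 runs, normexp background correction gave 818, 816, 1623 and 19. Requiring both lines to be well above background gave 1578 in SK-MES-1, 3512 on the same side in red and 127 runs, by its construction without genes of 1 line. A limit of 4-fold gave 957 and 1424, and windows of 15 genes 117 runs. Of the genes past 2-fold, 46.1% were higher in EBC-1, against 50.1% with normexp, 50.4% with scaling to the 75th percentile, which moved the median of all genes to 0.09, and 55.7% with both lines well above background. Setting dim genes to their bound was added after the data were seen.

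All 60 genes named for size kept their side under every setting that gave them a value, and 31 of 40 list medians did so. Sizes moved more. Normexp moved all 60 genes and 21 list medians by over the spread between repeat channels, with *PRSS8* at 5.90 (from 9.88) and *UCHL1* at -8.82 (from -14.73). Without the filter on dim probes, 17 list medians moved. With both lines well above background, 3 medians reversed, those of neuroendocrine markers (0.40, from -2.60), blood and endothelial cell markers (-0.60, from 0.39) and fibroblast markers (0.61, from -2.52). By its construction this setting drops genes measured in 1 line. That left only *DLL3* of the 2 measured neuroendocrine markers. In the fibroblast list, 3 of 7 genes were measured in SK-MES-1 only. Of the 8 blood and endothelial markers, 3 were measured in EBC-1 only and 2 in SK-MES-1 only. No paired analysis was possible because each line had 1 channel, and no replicate could be left out.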
